A study of Danio rerio with 10 samples.

Results

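The comparison described here set whole male zebrafish exposed to estradiol together with the anti-estrogen ICI 182,780 (ICI) against fish exposed to estradiol alone, and asked which transcripts the anti-estrogen moved and in which direction. It rested on 6 of the 10 arrays of the series, chosen by the treatment on their labels, namely 3 arrays of the E2+ICI group and 3 of the E2 group. The other 4 arrays were of control fish, which entered the fit and are given beside the results. All fish were adult males, of a strain not stated, kept for 96 h in their medium. E2+ICI fish received 17β-estradiol (E2) at 10 nM with ICI at 1 µM, E2 fish received E2 at 10 nM alone, and control fish received only ethanol at 0.01% by volume, which the medium of all groups held at a similar level. The record titles give the E2 dose as 10 mM and the protocol as 10 nM, and the protocol was followed here. Each array held RNA of 1 frozen whole fish, labelled with Cy3, beside a Cy5-labelled common reference made of equal parts of RNA from pooled male liver and pooled female liver. A value of 0 on the log2 scale thus means a normalized signal equal to that of the reference, and levels of different genes were not compared. In the gene lists below, control arrays had medians of -4.55 to -3.88 for oocyte regulators and -0.18 to -0.09 for muscle genes. For liver plasma proteins these medians were -0.16 to 0.68. How such values relate to a reference of liver alone was not tested. That the ratio is fish over reference was taken from the course of known estrogen-responsive transcripts, since the labels do not print it.

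Estradiol enters cells and binds nuclear estrogen receptors, which then act as dimers on the regulatory regions of target genes. In egg-laying fish the liver is a main target, and in females it makes vitellogenin, the yolk precursor, and egg envelope proteins under estrogen, while males carry the same receptors and genes. ICI 182,780, also named fulvestrant, is an antagonist without agonist action in most tissues that hinders dimerization and promotes loss of the receptor.

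Of the 16416 probes, 16212 had at least 2 values in each of the E2+ICI and E2 groups and were tested. The test was limma's moderated test with Benjamini-Hochberg adjustment over all of them, with a threshold of 0.05. In E2+ICI fish 467 probes rose (2.88% of those tested) and 412 fell (2.54%), so that 879 passed (5.42%), and 3919 had an unadjusted p under 0.05. Rises were 53.1% of the passing probes, but 37.6% of the 386 that passed when the values deposited before the authors' Lowess step were used with array medians set to 0. The passing probes rose by 1.44- to 29.3-fold with a median of 1.93-fold, and fell by 1.46- to 34.5-fold with a median of 2.03-fold. At a minimum of 2-fold 408 probes were left (2.52%), of which 195 were higher and 213 lower. Changes of 4-fold or more were commoner among falls, with 44 probes, than among rises, with 14. Every passing probe had the E2+ICI and E2 arrays apart without overlap, a pattern that 22.6% of all tested probes showed with the E2+ICI arrays higher and 19.9% with them lower.

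Between 201 and 912 probes had no value on an E2+ICI array and 314 to 620 on an E2 array. Arrays of a group correlated over all probes at 0.646 to 0.789 in the E2+ICI fish, 0.703 to 0.818 in the E2 fish and 0.676 to 0.898 in the controls. Between groups the correlations were lower in part. They were 0.113 to 0.384 for E2+ICI with E2 arrays, 0.279 to 0.692 for E2+ICI with control arrays and -0.084 to 0.144 for E2 with control arrays. The median SD of a probe was 0.183 in the E2+ICI fish, 0.165 in the E2 fish and 0.285 in the controls. Over the 467 that rose, the median log2 ratio of an array was 0.28, 0.46 and 0.23 in the E2+ICI fish, -0.60, -0.55 and -0.59 in the E2 fish and 0.37 to 0.48 in the controls. Over the 412 that fell, it was -0.46, -0.82 and -0.38 in the E2+ICI fish, 0.51, 0.41 and 0.46 in the E2 fish and -1.52 to -1.23 in the controls. E2+ICI replicate 2 lay farthest from the E2 fish. It was the highest E2+ICI array in 335 of the 460 rising probes measured on all 6 arrays and the lowest in 303 of 399 such falling probes. This array also had the widest SD over probes of the exposed arrays, 0.561, and the most missing values, 912. The SD was 0.373 and 0.415 on E2+ICI replicates 1 and 3, and the part of this spread in its position was not tested. A number that recurs across probes of its array stood among the exposed values of 22 of the 467 rising and 2 of the 412 falling probes. On every array the probes with this number had a median log2 ratio of 0 or 0.001 before the Lowess step. Of the rising probes 204 carry a gene symbol on the array, 33 could be named by a human homolog and 230 have no name here, against 163, 80 and 169 of the falling probes. The homolog names were given by the study for estrogen-responsive transcripts only, and are written in capitals below.

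**Figure D1:**
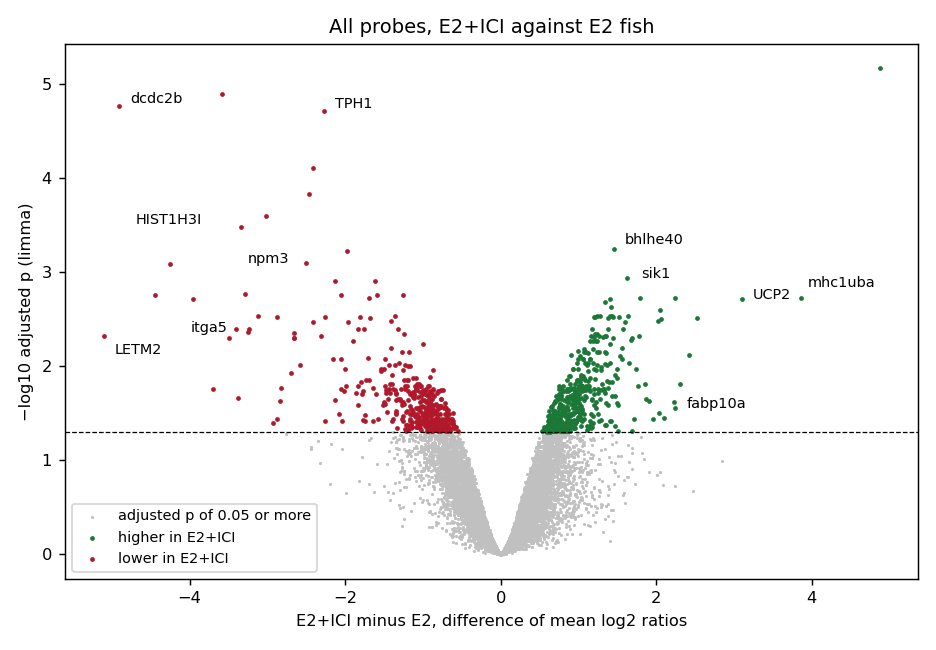
Difference of mean log2 ratios, E2+ICI minus E2 (x axis), against -log10 of limma's adjusted p (y axis), for the 16212 probes tested. Green points are the 467 probes higher in E2+ICI fish, red points the 412 that were lower, and the dashed line marks an adjusted p of 0.05; the rise farthest to the right is a probe without a gene name.

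The fall of greatest size was in the homolog of LETM2, a mitochondrial inner membrane protein in humans. Its log2 ratio was -2.72, -3.38 and -3.95 in the E2+ICI fish and 2.20, 3.10 and -0.04 in the E2 fish, against -6.11 to -3.97 in the controls. The groups did not overlap, but E2 replicate 3 lay well below the other E2 fish. The mean difference was -5.11 on the log2 scale (SE 0.73), a 34.5-fold fall with adjusted p = 0.00478. Next came dcdc2b, whose product has the microtubule-binding doublecortin domain. It read -2.43, -2.77 and -3.23 in the E2+ICI fish and 2.33, 2.41 and 1.55 in the E2 fish. The E2+ICI fish overlapped the controls (-3.51 to -2.64), and dcdc2b fell by 4.91 (SE 0.30, adjusted p = 1.74e-05).

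The T-box factor tbxta, needed for the notochord of the embryo, was at -2.71, -2.38 and -1.84 in the E2+ICI fish and at 0.24, 2.94 and 0.99 in the E2 fish, a 13-fold fall (log2 -3.71, adjusted p = 0.0175). E2 replicate 2 stood far above the other E2 fish for this gene. The Polycomb group protein gene rybpb was at -0.06, -0.49 and -0.44 in the E2+ICI fish and at 2.75, 3.44 and 2.70 in the E2 fish, while the control mean was -2.57. All E2+ICI fish therefore lay between the other groups, and the fall was 9.80-fold (log2 -3.29, SE 0.36, adjusted p = 0.00173). The probe of med13b, a subunit of the kinase module of Mediator, read -1.31, -1.72 and -1.12 in the E2+ICI fish and 1.82, 2.05 and 1.35 in the E2 fish (8.71-fold lower, adjusted p = 0.00292). The other probe of med13b differed by -0.19 and did not pass. Nucleophosmin family member npm3, a histone chaperone, was at -1.65, -1.72 and -0.98 in the E2+ICI fish, at 1.08, 0.84 and 1.25 in the E2 fish and at -3.76 to -3.04 in the controls. It fell 5.68-fold (log2 -2.51, SE 0.25, adjusted p = 0.000802).

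The homolog of the replication-dependent histone gene HIST1H3I was close to the control level with ICI. Its values were -2.87, -3.53 and -3.37 in the E2+ICI fish, 0.08, 0.21 and -0.03 in the E2 fish and -4.06 to -2.78 in the controls, a 10.2-fold fall (log2 -3.35, SE 0.29, adjusted p = 0.000335). Histone H3 genes are nearly identical copies, so that the probe may read several of them. Expression of the homolog of TPH1, the first enzyme of serotonin synthesis, was tight within groups, with -1.83, -1.92 and -1.76 in the E2+ICI fish and 0.51, 0.48 and 0.31 in the E2 fish. The TPH1 difference of -2.27 (SE 0.14) had the smallest adjusted p but one among the falling probes with a gene name, 1.95e-05. Zinc finger homolog ZNF214 was at -0.18, -0.37 and -0.14 in the E2+ICI fish and at 1.82, 1.47 and 1.94 in the E2 fish, a 3.93-fold fall (adjusted p = 0.000604).

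For itga5, the alpha chain of the fibronectin receptor, the values were -0.76, -0.81 and -1.53 in the E2+ICI fish and 1.89, 3.05 and 1.71 in the E2 fish (9.52-fold lower, adjusted p = 0.00429), while another probe of itga5 differed by 0.29 and did not pass. The growth cone protein gene gap43 was at -1.60, -0.93 and -1.42 in the E2+ICI fish and at 1.89, 2.44 and 1.42 in the E2 fish, and fell 9.40-fold (adjusted p = 0.00407). All 3 E2+ICI fish lay more than 2 log2 units under the lowest E2 fish for gap43. The homolog of TBCC, a cofactor of tubulin folding, was at -1.64, -2.85 and -2.45 in the E2+ICI fish and at 0.67, 1.93 and 0.69 in the E2 fish (10.6-fold lower, adjusted p = 0.00407). Values of uevld, which joins a ubiquitin-conjugase-like domain to a lactate dehydrogenase-like one, were -0.38, -1.21 and -1.17 in the E2+ICI fish and 2.05, 3.20 and 2.46 in the E2 fish (11.2-fold lower, adjusted p = 0.00497). In the homologs of ABCC5, an exporter of organic anions, RAP2B, a small GTPase, and DENND4C, an activator of a Rab GTPase, the fall was 7.15- to 7.63-fold and the adjusted p was 0.0231 to 0.0397. The E2 fish were far apart in these 3 genes, with RAP2B at 3.07, 4.25 and 0.70.

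Among the 15 largest falls with a gene name, 7.11- to 34.5-fold, E2 replicate 2 was the highest E2 fish in 14 and E2 replicate 3 the lowest in 11. The E2+ICI fish were less even as well, since replicate 1 was the highest of them in 11 of the 15.

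**Figure D2:**
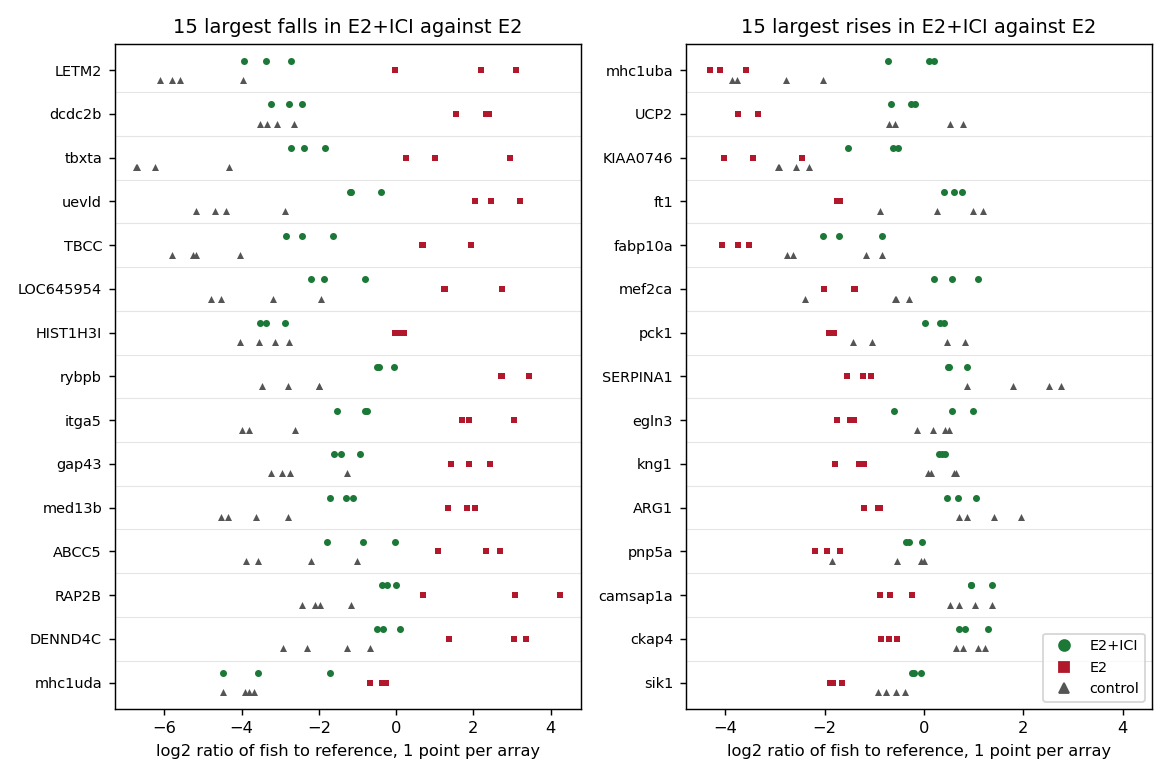
Log2 ratio of fish to reference (x axis) in each array for the 15 genes with the largest fall (left) and the 15 with the largest rise (right) in E2+ICI against E2 fish; circles are E2+ICI, squares E2 and triangles control fish. No circle overlaps the squares of its gene, and the squares of LETM2, tbxta and RAP2B are spread over more than 2 log2 units.

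The largest rise of all was in a probe without a gene name. It read 0.02, 0.16 and 0.01 in the E2+ICI fish and -4.93, -4.52 and -5.00 in the E2 fish, a 29.3-fold rise with the smallest adjusted p of all probes, 6.84e-06. The controls, at -4.40 to -3.38, lay near the E2 fish and far from the E2+ICI fish, and the value of E2+ICI replicate 3 is one that 373 probes of that array share. A like order was seen in mhc1uba, a major histocompatibility complex class I gene whose product presents peptides to T cells, and the named gene with the largest rise. Its log2 ratio was -0.72, 0.10 and 0.20 in the E2+ICI fish, -4.30, -3.59 and -4.11 in the E2 fish and -3.86 to -2.03 in the controls, a rise of 14.5-fold (log2 3.86, SE 0.45, adjusted p = 0.00189). Another class I gene, mhc1uda, went the other way, with -1.72, -3.57 and -4.50 in the E2+ICI fish, -0.35, -0.68 and -0.27 in the E2 fish and -4.48 to -3.69 in the controls (7.11-fold lower, adjusted p = 0.0169). The class I genes of zebrafish are a multigene family whose copies differ between fish, so that the values of these probes are uncertain as levels of 1 gene.

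Several enzymes and carriers of metabolism were among the 15 largest named rises. The homolog of UCP2, a mitochondrial carrier, was at -0.27, -0.19 and -0.67 in the E2+ICI fish and at -3.35, -3.35 and -3.74 in the E2 fish, and rose 8.60-fold (log2 3.11, SE 0.36, adjusted p = 0.00192). The E2+ICI fish lay within the range of the controls (-0.70 to 0.78). Levels of pck1, the enzyme that commits carbon to gluconeogenesis, were 0.32, 0.40 and 0.01 in the E2+ICI fish and -1.86, -1.81 and -1.91 in the E2 fish (4.30-fold higher, adjusted p = 0.0355), although the controls spread from -1.44 to 0.82. The fucosyltransferase gene ft1 was at 0.40, 0.77 and 0.60 in the E2+ICI fish and at -1.68, -1.70 and -1.76 in the E2 fish (4.94-fold higher, adjusted p = 0.0156). The arginase homolog ARG1, of the urea cycle, was at 0.69, 1.04 and 0.47 in the E2+ICI fish and at -0.89, -1.22 and -0.93 in the E2 fish, a 3.36-fold rise (adjusted p = 0.0106). Purine nucleoside phosphorylase pnp5a rose 3.27-fold (adjusted p = 0.0366), and its other probe rose by 1.68 on the log2 scale.

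The salt-inducible kinase gene sik1 was at -0.21, -0.06 and -0.25 in the E2+ICI fish, at -1.84, -1.89 and -1.66 in the E2 fish and at -0.92 to -0.39 in the controls, a rise of 3.08-fold (log2 1.62, SE 0.17, adjusted p = 0.00117). The E2+ICI fish lay above all controls, yet the E2+ICI and control means differed by only 0.49 (adjusted p = 0.0707). The clock repressor gene bhlhe40 was nearly the same in all fish of a group, with 0.37, 0.40 and 0.38 in the E2+ICI fish and -1.11, -1.05 and -1.08 in the E2 fish. It rose 2.76-fold with adjusted p = 0.000568, the smallest among the rising probes with a gene name. Values of egln3, a prolyl hydroxylase that marks hypoxia-inducible factor for breakdown, were 0.56, -0.61 and 0.98 in the E2+ICI fish and -1.41, -1.50 and -1.75 in the E2 fish (3.64-fold higher, adjusted p = 0.0153). E2+ICI replicate 2 was the low fish there. The probes of ckap4, an endoplasmic reticulum membrane protein, and camsap1a, which caps microtubule minus ends, rose 3.12- and 3.22-fold (adjusted p = 0.00292 and 0.00502), and the other probe of camsap1a differed by -0.31 and did not pass.

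In some genes the E2+ICI fish differed from the E2 fish while the E2 fish did not differ from the controls at an unadjusted p under 0.05. Only the 5 largest rises of this kind in named genes are described here, and their number was not counted. Besides mhc1uba these included KIAA0746, which was at -0.62, -1.54 and -0.52 in the E2+ICI fish, at -4.02, -2.46 and -3.45 in the E2 fish and at -2.94 to -2.32 in the controls (5.34-fold higher in E2+ICI than in E2, adjusted p = 0.0076). The myocyte enhancer factor gene mef2ca read 0.57, 1.08 and 0.21 in the E2+ICI fish and -2.02, -1.39 and -1.41 in the E2 fish (4.67-fold higher, adjusted p = 0.0241). Among the controls of mef2ca 3 fish lay between -0.581 and -0.311 while replicate 4 stood at -2.4. For fbp1b, an enzyme of gluconeogenesis, the values were -0.90, -0.63 and -0.55 in the E2+ICI fish, -2.11, -2.07 and -2.30 in the E2 fish and -3.06 to -1.73 in the controls. It was 2.77-fold higher in E2+ICI than in E2 fish (adjusted p = 0.0207) and 1.51 on the log2 scale above the controls (adjusted p = 0.00471), and no E2+ICI fish overlapped a control. The diabloa transcript, whose product releases caspases from their inhibitors, was at 0.11, -0.47 and 0.28 in the E2+ICI fish, at -1.49, -1.14 and -1.47 in the E2 fish and at -1.90 to -1.37 in the controls (2.53-fold higher than in E2, adjusted p = 0.00942).

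Falls of this kind were met in 3 named genes. The large Maf factor gene mafaa was at -0.14, -0.74 and 0.14 in the E2+ICI fish, at 0.93, 0.52 and 1.23 in the E2 fish and at 0.34 to 1.04 in the controls, so that all E2+ICI fish lay under all others (2.20-fold lower than in E2, adjusted p = 0.0394). The atypical MAP kinase gene mapk6 was at -0.72, -1.08 and -0.66 in the E2+ICI fish and at 0.06, 0.35 and 0.37 in the E2 fish (2.12-fold lower, adjusted p = 0.0347). The membrane-bending adaptor gene trip10a fell 1.88-fold (adjusted p = 0.0421). The comparisons with control share arrays with the main one, and a p that misses the threshold does not show that E2 and control fish were alike.

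The genes used as markers of estrogen exposure did not pass. None of their 10 probes did. All E2+ICI fish lay below all E2 fish in 3 of them and above all E2 fish in 2, star and the receptor gene esr2a. Over all tested probes these shares were 19.9% and 22.6%. Without control replicate 4 the list had 1 rise and 2 falls, and in a fit of the 6 exposed fish alone 1 and 3. Over all tested probes there were 1436 rises and 1257 falls in the first of these settings and 1792 and 1522 in the second. For vtg3, a vitellogenin, the log2 ratios were -0.06, -0.39 and 0.01 in the E2+ICI fish and 0.77, 0.86 and 2.01 in the E2 fish, with a control mean of -6.44. The value of 0.01, on E2+ICI replicate 3, is the one that 373 probes of that array share. The difference of -1.36 (SE 0.37) had adjusted p = 0.0564, and both exposed groups stood far above the controls. The estrogen receptor gene esr1 was at 0.15, -0.86 and 0.03 in the E2+ICI fish and at 1.39, 0.54 and 1.25 in the E2 fish, with a control mean of -1.03 (difference -1.29, SE 0.34, adjusted p = 0.0539). The aspartic protease gene nots (nothepsin), expressed in liver, was at -0.42, 0.33 and 0.25 in the E2+ICI fish and at 0.88, 0.52 and 0.71 in the E2 fish (difference -0.65, adjusted p = 0.201). In all 3 genes the E2+ICI and E2 fish did not overlap, while E2+ICI replicate 2 lay within the range of the controls for esr1. The remaining 7 probes, for the other estrogen receptors, the progesterone receptor, the aromatases and the cholesterol carrier star, had adjusted p = 0.114 or more, the lowest of them for star with a difference of 0.84.

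**Figure D3:**
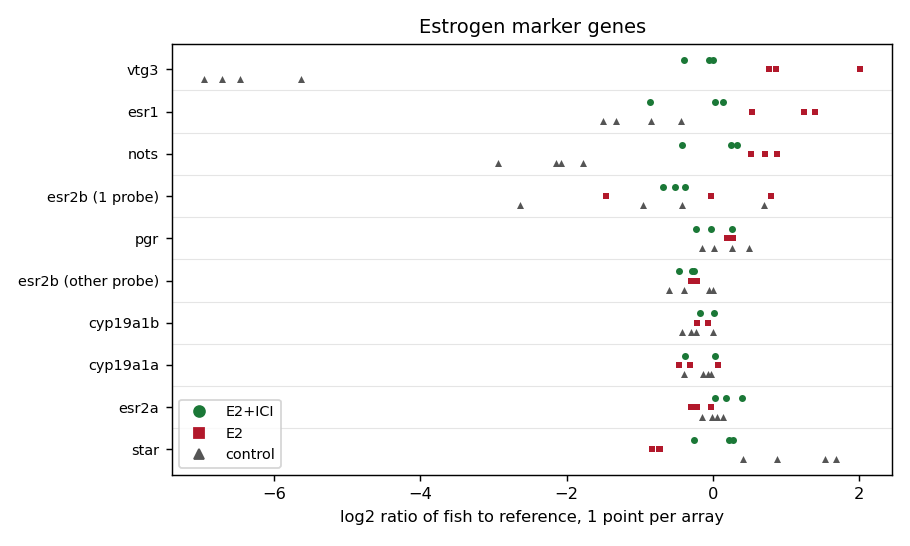
Log2 ratio of fish to reference (x axis) in each array for the 10 probes of estrogen marker genes; circles are E2+ICI, squares E2 and triangles control fish. For vtg3, esr1 and nots the circles lie left of the squares without overlap, and for star and esr2a they lie to the right, while none of the 10 probes passed.

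Gene lists were read by how many of their probes passed, beside the 6037 tested probes with a symbol, of which 204 were higher and 163 lower; the median difference over all probes was 0.03. The liver list held 24 probes, for plasma proteins secreted by the liver and for the hepatocyte gene fabp10a, which is not such a protein. Of these probes 7 rose in E2+ICI fish and none fell, and the median difference was 0.90. The median of the list on each array was 0.02, -0.10 and -0.05 in the E2+ICI fish, -1.21, -1.07 and -1.14 in the E2 fish and -0.16 to 0.68 in the controls. All E2+ICI fish thus lay about 1 log2 unit above the E2 fish. In whole-fish RNA fewer cells of a type and less RNA per cell cannot be told apart. With 1 array left out the number that rose was 2 to 13. It was 3 without E2+ICI replicate 2 and 13 without control replicate 4. The totals over all tested probes moved as well. Without E2+ICI replicate 2 they were 95 rises and 67 falls, and without control replicate 4 1436 and 1257, beside 467 and 412 in the main fit. Counts of the lists below under these settings stand beside the same totals.

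The kininogen gene kng1, the source of bradykinin, was at 0.30, 0.43 and 0.36 in the E2+ICI fish and at -1.21, -1.31 and -1.79 in the E2 fish, a rise of 3.48-fold (adjusted p = 0.00189, log2 1.80, SE 0.21) to values inside the control range of 0.08 to 0.64. Haptoglobin (hp), which binds free hemoglobin, was at 0.31, 0.45 and 0.19 in the E2+ICI fish, at -1.23, -0.83 and -1.08 in the E2 fish and at 0.92 to 1.88 in the controls (2.58-fold higher than in E2, adjusted p = 0.0145). Its E2+ICI fish lay above every E2 fish and below every control. The hepatocyte fatty acid-binding protein gene fabp10a was at -2.04, -1.71 and -0.85 in the E2+ICI fish and at -3.75, -3.53 and -4.06 in the E2 fish (4.75-fold higher, adjusted p = 0.028). The copper carrier ceruloplasmin (cp), the hemopexin gene hpxb and the lipoprotein gene apoa1a rose by 1.28, 1.41 and 1.01 on the log2 scale. For apoa1a the controls, with a mean of -1.94, lay below the E2 fish as well. Outside the list, the homolog of SERPINA1, which encodes alpha-1 antitrypsin, rose 3.75-fold (adjusted p = 0.0237). The transferrin gene tfa differed by 0.90 (adjusted p = 0.058) and the retinol carrier gene rbp4 by -0.78, and neither passed.

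**Figure D4:**
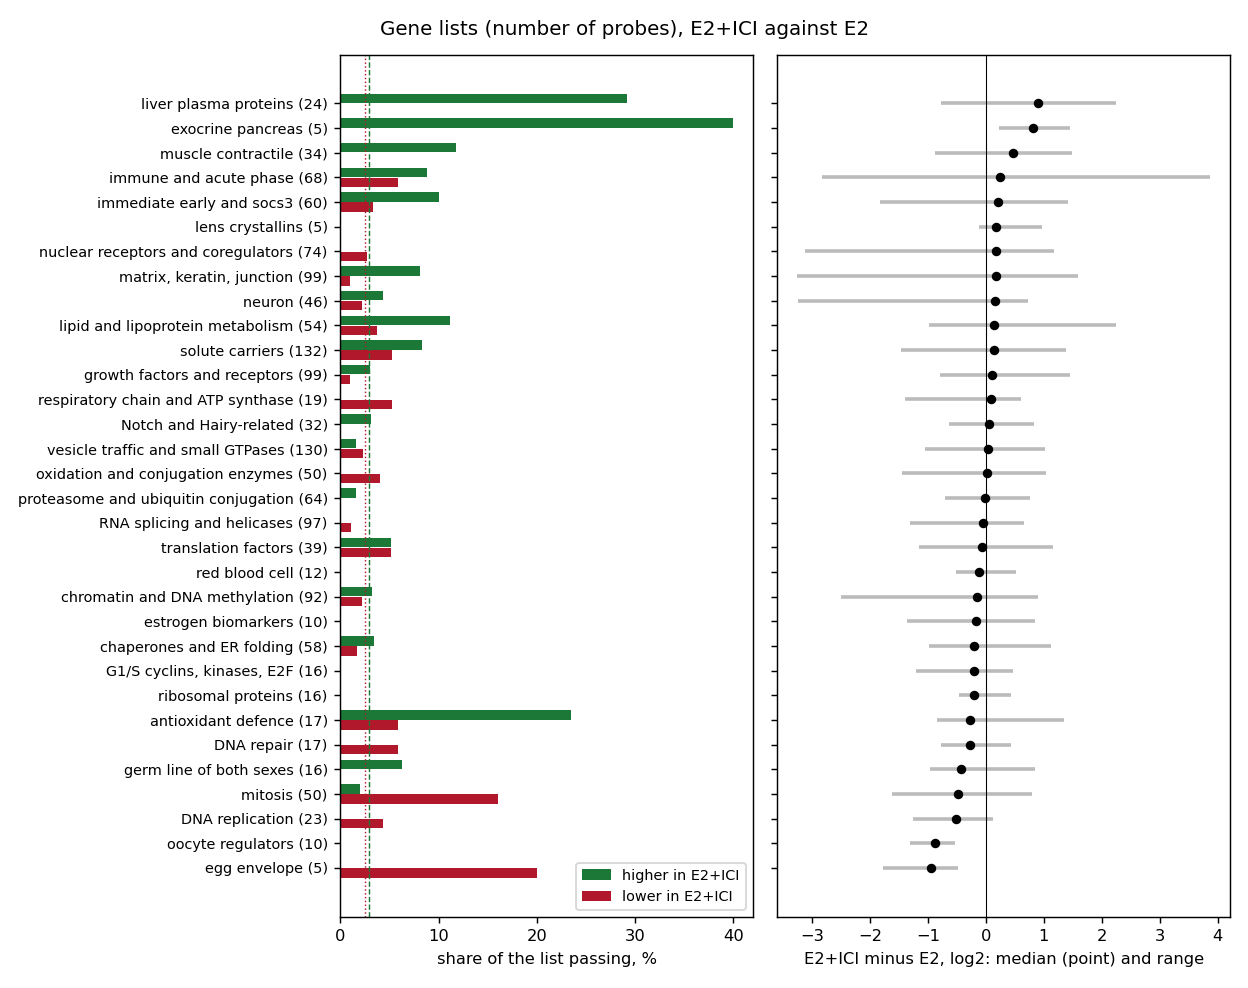
Left, share of each list's probes that passed (x axis, %), green for probes higher and red for probes lower in E2+ICI fish, with broken lines at the shares over all probes (2.88% and 2.54%). Right, median (point) and range (line) of E2+ICI minus E2 on the log2 scale; liver plasma proteins stand at a median of 0.90 and mitosis at -0.48.

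Exocrine pancreas and muscle genes were also higher where they moved. Of 5 pancreatic enzyme probes 2 rose, in cpa5, a carboxypeptidase, and cel.2, a lipase. For cel.2 the value of E2+ICI replicate 3 is the one that 373 probes of that array share. Its control mean of -1.19 lay near the E2 mean of -1.09. Carboxypeptidase cpa5 was at -0.46, -0.45 and -0.02 in the E2+ICI fish and at -1.65, -1.56 and -2.05 in the E2 fish (2.72-fold higher, adjusted p = 0.00303). Of 34 probes for contractile proteins 4 rose and none fell, with a median of 0.47. These were myl10, pvalb4, tnnt3b and myl7, of which myl10, a myosin light chain, was at -0.98, -0.43 and -0.86 in the E2+ICI fish and at -1.92, -2.32 and -2.26 in the E2 fish (2.66-fold higher, adjusted p = 0.00292). For pvalb4 the value of E2+ICI replicate 3 is also the recurring one of that array. The list median per array was -0.05, -0.03 and -0.03 in the E2+ICI fish, -0.34, -0.30 and -0.35 in the E2 fish and -0.18 to -0.09 in the controls. All E2+ICI fish lay above all E2 fish in 18 of the 34 probes and below them in 2, beside 22.6% and 19.9% of all tested probes, and 14 overlapped. Among those that overlapped was mylpfa, a fast muscle light chain, with -1.77, -1.09 and -0.49 in the E2+ICI fish and -1.81, -1.94 and -1.49 in the E2 fish. Without E2+ICI replicate 2 the muscle count was 1, and without control replicate 4 it was 11.

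Tight junction genes made up most of the rises among matrix, keratin and junction genes, where 8 of 99 probes rose and 1, itga5, fell. Claudins seal the space between epithelial cells. For cldnb the values were -0.10, 0.28 and -0.29 in the E2+ICI fish, -1.66, -1.66 and -1.58 in the E2 fish and 0.11 to 0.84 in the controls, a 3.02-fold rise (log2 1.59, SE 0.21, adjusted p = 0.00342). The claudins cldn3c, cldne, cldn1 and cldn3d rose by 1.00, 1.39, 1.36 and 0.85, while cldng differed by -0.98 and cldni by 0.81 without passing. Rises were also seen in the cartilage collagen gene col9a2, the inhibitor gene timp2b and the keratin gene krt5, the last with all 3 E2+ICI values at a number that recurs across probes of its array. The rises of the list numbered 2 to 14 with 1 array left out, among them 3 without E2+ICI replicate 2 and 14 without control replicate 4.

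Transport and lipid genes changed in both directions. Of 132 probes for solute carriers and pumps 11 rose and 7 fell. The lipid transporter abca12 of the skin barrier was at 1.23, 1.76 and 1.56 in the E2+ICI fish and at 0.29, -0.05 and 0.17 in the E2 fish (2.60-fold higher, adjusted p = 0.00308). The sodium pump subunit gene atp1b1a was at 0.54, 0.55 and 0.22 in the E2+ICI fish and at -0.78, -0.98 and -0.65 in the E2 fish (2.36-fold higher, adjusted p = 0.00456). Organic cation carrier slc22a2 rose by 1.26, amino acid carrier slc38a4 by 1.24 and glucose-6-phosphate carrier slc37a4a by 0.89. Among the falls were slc16a3b, a monocarboxylate carrier (-1.47), slc12a3, a sodium chloride carrier (-1.42), slc39a13, a zinc carrier (-1.13), and the pump subunit atp1b3b (-1.04). With single arrays left out the solute carrier list had 4 to 26 rises and 0 to 14 falls. Of 54 lipid probes 6 rose and 2 fell, and the rises include fabp10a and apoa1a, already counted in the liver list. The sterol sensor gene insig1 was at 0.12, 0.20 and 0.27 in the E2+ICI fish, at -0.82, -0.64 and -0.86 in the E2 fish and at -1.05 to -0.41 in the controls (1.96-fold higher than in E2, adjusted p = 0.0194), with all E2+ICI fish above both other groups. Endothelial lipase lipg was at -0.53, -1.20 and -0.34 in the E2+ICI fish and at 0.37, 0.08 and 0.41 in the E2 fish (1.97-fold lower, adjusted p = 0.0347).

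The list of antioxidant genes, in which the oxidase gene mao was also counted, had 4 rises and 1 fall among 17 probes, but a median of -0.26. The quinone reductase nqo1 was at 0.79, 1.1 and 0.89 in the E2+ICI fish, at -0.23, -0.44 and -0.10 in the E2 fish and at 0.82 to 1.39 in the controls, a 2.27-fold rise (log2 1.18, SE 0.18, adjusted p = 0.00661), and a second nqo1 probe rose by 1.04. The monoamine oxidase gene mao, whose enzyme makes hydrogen peroxide as it degrades amines, was at -0.79, -0.56 and -0.88 in the E2+ICI fish and at -2.04, -2.28 and -1.97 in the E2 fish (2.55-fold higher, adjusted p = 0.00723). The thioredoxin-like gene txnl1 rose by 0.95, while thioredoxin reductase txnrd3 fell by 0.84. Of 60 probes for immediate early genes and their kin 6 rose and 2 fell. Stress phosphatase subunit ppp1r15a was at 0.15, 0.46 and 0.25 in the E2+ICI fish and at -1.01, -0.74 and -0.97 in the E2 fish (2.29-fold higher, adjusted p = 0.0092). Within the AP-1 family of transcription factors 1 member rose and 1 fell. The gene fosl2 was at -0.19, -0.19 and -0.23 in the E2+ICI fish and at -1.27, -1.36 and -1.20 in the E2 fish (2.11-fold higher, adjusted p = 0.0134). The gene jun was at -1.19, -2.11 and -1.19 in the E2+ICI fish and at 0.04, 0.19 and 0.39 in the E2 fish (3.26-fold lower, adjusted p = 0.00813), while its other probe differed by 0.56 and did not pass.

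Immune genes were mixed, with 6 rises and 4 falls among 68 probes. The invariant chain gene cd74b and the annexin gene anxa1c rose by 1.23 and 0.94. The neutrophil enzyme myeloperoxidase, mpx, was at -0.33, -0.14 and -0.23 in the E2+ICI fish, at 0.31, 0.83 and 0.92 in the E2 fish and at 1.71 to 2.01 in the controls. It was 1.90-fold lower with ICI than with E2 alone (adjusted p = 0.0193), and E2 fish were themselves 1.15 below the controls, so that E2+ICI fish were farther from the controls than E2 fish were. Its difference from the controls was -2.07 for E2+ICI (adjusted p = 2.52e-05) and -1.15 for E2 (adjusted p = 0.000391). With 1 array left out the immune list had 1 to 17 rises and 0 to 9 falls.

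Genes of cell division were lower in E2+ICI fish where they passed, with 1 exception. Of 50 mitosis probes 8 fell and 1 rose, with a median of -0.48. The kinesin gene kif18a, which limits chromosome movement on the spindle, was at -0.77, -0.68 and -0.76 in the E2+ICI fish, at 0.28, 0.08 and 0.15 in the E2 fish and at -2.01 to -1.51 in the controls, a 1.88-fold fall (log2 -0.91, SE 0.16, adjusted p = 0.0132). The 3 groups stood apart, with E2+ICI in the middle. The chromosomal passenger genes cdca9 (a borealin) and birc5a (survivin) fell by 1.27 and 0.69, the spindle augmin gene haus6 by 1.08, the checkpoint gene zwilch by 0.79 and the kinase gene plk3 by 0.93. The centromere gene cenps was the exception and rose by 0.70. Of 23 DNA replication probes none rose and 1 fell, in uhrf1, which brings maintenance DNA methylation to the fork (-0.50, -0.54 and -0.35 in the E2+ICI fish against 0.27, 0.12 and 0.80 in the E2 fish, adjusted p = 0.0386), with a list median of -0.51. Without control replicate 4 the falls of this list numbered 10, and without E2+ICI replicate 2 there was none. Of 17 DNA repair probes none rose and 1 fell, in apex1, the main enzyme for abasic sites (-0.77, adjusted p = 0.0421). Of the 6037 tested probes with a symbol 163 fell (2.7%), so single falls in lists of 23 and 17 probes do not set them apart. All E2+ICI fish lay below all E2 fish in 14 of the 23 replication probes and above them in none. For the 17 repair probes these numbers were 5 and 2.

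Array by array, the mitosis list had a median of -0.29, -0.71 and -0.23 in the E2+ICI fish, 0.14, 0.08 and 0.07 in the E2 fish and -1.59 to -1.19 in the controls, with E2+ICI replicate 2 the lowest of the exposed fish. The falls in the list numbered 0 to 15 with 1 array left out, among them 1 without E2+ICI replicate 2 and 15 without control replicate 4. Over all tested probes 67 and 1257 fell in these 2 settings, beside 412 in the main fit. Transcripts of oocyte regulators moved beside these lists. Their 10 probes had an array median of -0.38, -1.37 and -0.02 in the E2+ICI fish, 0.42, 0.15 and 0.22 in the E2 fish and -4.55 to -3.88 in the controls, and no probe passed, although the median difference was -0.87. The list also counts the claudin gene cldnd and the carbonic anhydrase gene ca15b. On E2+ICI replicate 3, 3 of the 10 probes had the recurring value of that array, which bears on its median. Without control replicate 4, 3 of the 10 fell, and in a fit of the 6 exposed fish alone 6 did. The oocyte RNA-binding protein gene zar1 had adjusted p = 0.073. E2+ICI replicate 2 was again lowest of the exposed fish. The part of oocyte transcripts in the changes of division genes was not tested. Of 5 egg envelope probes 1 fell, in zpcx, at -0.49, -1.80 and -0.53 in the E2+ICI fish, 0.78, 0.66 and 1.04 in the E2 fish and -5.52 to -4.06 in the controls (3.41-fold lower than in E2, adjusted p = 0.037), and with E2+ICI replicate 2 left out none did.

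**Figure D5:**
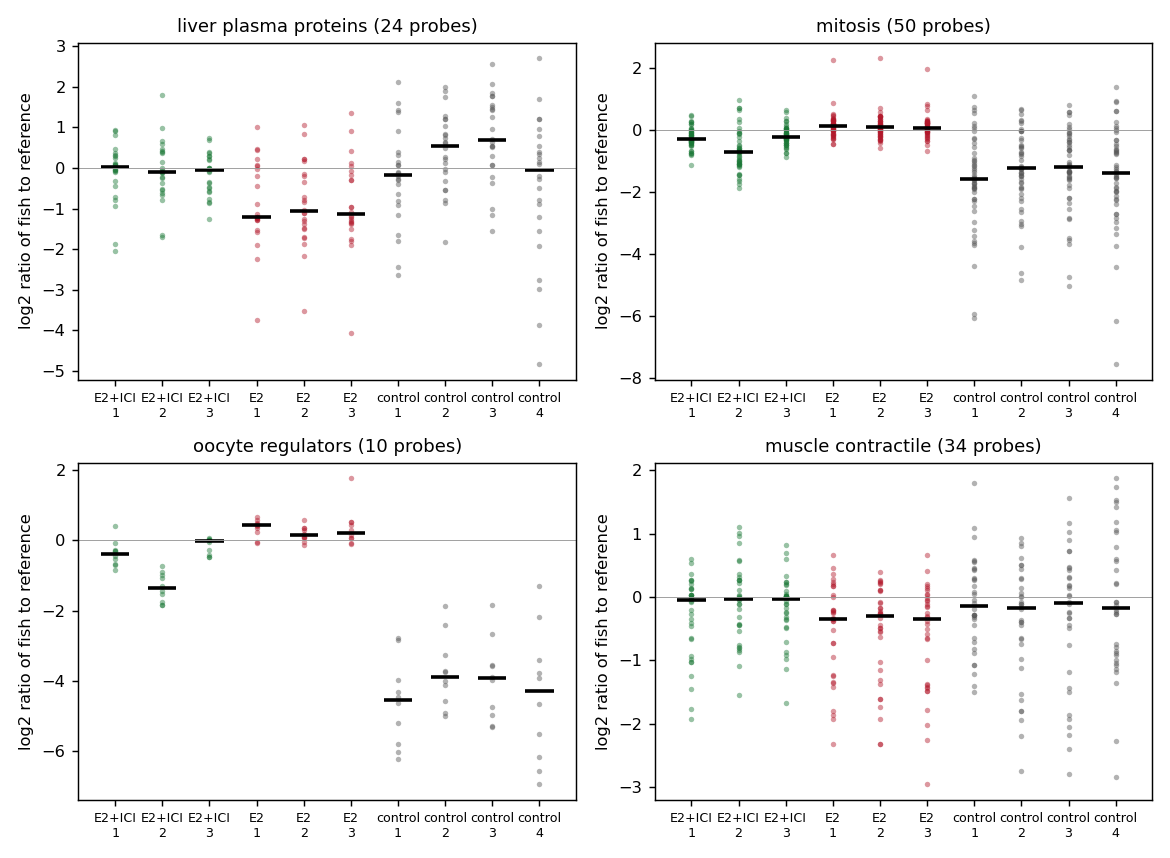
Log2 ratio of fish to reference (y axis) of each probe of 4 lists on each array (x axis, group and replicate), with a bar at the median. The liver plasma protein medians of the E2+ICI fish are -0.10 to 0.02 and those of the E2 fish -1.21 to -1.07; in mitosis and oocyte regulators E2+ICI replicate 2 has the lowest median of the exposed fish.

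Few or no members passed in the other lists. Of 74 probes for nuclear receptors and coregulators 2 fell, med13b and the orphan receptor nr2f1b, the second at -0.54, -1.11 and -0.82 in the E2+ICI fish and at 1.17, 0.86 and 0.92 in the E2 fish (3.50-fold lower, adjusted p = 0.00303). Of 39 probes for translation factors 2 rose, the cap-binding inhibitor eif4ebp3l (1.16) and the poly(A)-binding protein pabpc1b (0.90), and 2 fell, the germ-line cap-binding protein eif4e1b (-1.16) and eif4g2a (-0.90). Of 58 chaperone probes 2 rose and 1 fell, but without control replicate 4 these were 4 and 10. The inducible heat shock gene hsp70.3 was at 0.54, 0.38 and 0.18 in the E2+ICI fish and at -0.77, -0.71 and -0.79 in the E2 fish (2.18-fold higher, adjusted p = 0.0092). Among 50 probes for oxidation and conjugation enzymes 2 fell, aldh18a1 of proline synthesis and the steroid hydroxylase gene cyp17a1, and among 19 for the respiratory chain 1 did, coq10a, a coenzyme Q-binding protein. In 16 probes each for ribosomal proteins and for G1 and S phase regulators, 12 for red blood cells and 5 for lens crystallins, none passed. All 16 ribosomal protein probes had the recurring value of E2+ICI replicate 3, and without control replicate 4 the G1 and S phase list had 4 falls.

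The number of passing probes depended on which arrays were used. Without any 1 of the E2 or E2+ICI arrays it was 162 to 564, without control replicate 4 it was 2693, and in a fit of the 6 exposed fish alone it was 3314. Of the 102 passing probes chosen by the rule for named genes, 30 passed under all 25 settings tried, among them dcdc2b, LETM2, HIST1H3I, TPH1, rybpb, npm3, mhc1uba, UCP2, kng1, cldnb, nqo1, sik1 and bhlhe40.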

How the data were processed

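Arrays of 16416 spotted oligonucleotide probes were scanned by the authors with GenePix and the local background was subtracted. Lowess normalization was applied and arrays were kept by inspection of scatter plots. The paper gives 4 replicates per treatment, whereas the data hold 4 control arrays but only 3 E2 and 3 E2+ICI arrays. Whether exposed arrays were dropped at that inspection is not stated. The effect of such a selection on the spread within groups and on the counts was not tested. The deposited values are log2 ratios per probe, 1 column per fish, and a second deposited table holds log2 ratios before the Lowess step. Software versions are not given in the sources used here. No spot intensities were in these tables. Precision was therefore judged from the spread between arrays, and intensity-dependent error could not be assessed. Groups were taken from the treatment labels. The paper states a daily change of medium but not how many fish shared a tank. The p-values rest on 1 spread per probe pooled within all 3 groups, controls included. They do not measure the spread of the E2+ICI and E2 fish alone. The design text counts 3 controls whereas 4 arrays carry that label, and all 4 were used.

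limma 3.58.1 in R 4.3.3 was fitted to all 10 arrays with 1 mean per group, no covariate and the contrast E2+ICI minus E2, over 16212 probes with at least 2 values in both groups (204 were left out). Tests were two-sided with Benjamini-Hochberg adjustment and a threshold of 0.05, and the prior had 4.184 degrees of freedom beside a median of 7 residual ones. An exact permutation test of 3 against 3 fish cannot go below p = 0.1 and was not used. Tables and figures were made in Python 3.11.15 with numpy 2.4.6, pandas 2.3.3 and matplotlib 3.10.9. In simulated data for this comparison over 16212 probes, 52% of 100 probes changed by 1 on the log2 scale and 92% of 100 changed by 2 were recovered, with 5 false calls. The simulated noise was normal with 1 spread per probe for all groups. In the real data the median SD of a probe was 0.183 in E2+ICI fish, 0.165 in E2 fish and 0.285 in controls. Recovery under such unequal spread was not tested.

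The array annotation gives 1 symbol for 6088 probes, several for 75 and none for 10253, and 6019 have a gene in the RefSeq gene table. A further 235 took the name of the human homolog listed by the study for their accession, and 172 probes share 1 accession, that of actb2. Gene lists use array symbols only and were described by counts and medians, without a test. Named genes are the 15 largest rises and falls among named passing probes with all 6 values and separate groups, the 5 of each direction with the smallest adjusted p, up to 4 members of each list by adjusted p and others where a statement needs them, the 5 largest of each direction where E2 and control did not differ at an unadjusted p of 0.05, and the estrogen markers. Members, lists and rule were chosen with earlier results of these data known. Alternatives were other normalizations and scalings, values before Lowess, array weights, a robust prior, the 6 arrays alone, filters on missing and repeated values, averaged accessions, a replicate block, a 2-fold minimum, an adjusted p under 0.08 and leaving out each array. Promoter sequences and the study's PCR data were not analysed here.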

Additional observations from a re-analysis of the deposited data

Results flagged for a closer look

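In the controls, mef2ca had 1 fish far from the others. Control replicate 4 was at -2.4, while the other 3 controls lay between -0.581 and -0.311, and the gap exceeded Dixon's limit for 4 values, which chance passes in about 1 of 20 such groups. The limit was applied to the controls of many named probes, so that a single gap beyond it can arise by chance. The E2+ICI fish (0.57, 1.08 and 0.21) and the E2 fish (-2.02, -1.39 and -1.41) of this gene do not depend on that array, but the difference between E2 and control fish and the spread used in its test do.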

How the results depend on the processing

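The count of passing probes, 879 (467 higher, 412 lower), changed with the setting. It was 3926 (1886 and 2040) after quantile normalization, 3832 (1935 and 1897) with arrays scaled to equal spread, 3846 (2062 and 1784) with array weights and 3314 (1792 and 1522) with the 6 exposed fish alone. With values before Lowess it was 386 (145 and 241) after centring, 385 (145 and 240) when capped ratios were also set to missing, a choice made after seeing the data, and 163 (92 and 71) as deposited, where the median difference of all probes was 0.196 instead of 0.033. It was 408 (195 and 213) at a 2-fold minimum and 1535 (778 and 757) at an adjusted p under 0.08. With 1 array left out it was 162 to 2693, with 95 to 1436 higher and 67 to 1257 lower. It was 172, 226 and 176 without E2 replicates 1, 2 and 3, 286, 162 and 564 without E2+ICI replicates 1, 2 and 3, and 2693 without control replicate 4. The cause was not tested, although the SD over probes was 0.796 to 1.07 on control arrays and 0.373 to 0.561 on the exposed ones. Except for the replicate block below, the other settings gave counts within 1.5 times of the main one.

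The labels do not state that replicate numbers pair fish. Deviations of same-numbered E2+ICI and E2 fish correlated at -0.209, -0.0745 and 0.0464, so no pairing was assumed. With a replicate block 2089 probes passed (1128 higher, 961 lower). Number 4 was carried by control replicate 4 alone, so that this array added nothing to the residual spread under the block. Without that array and with no block 2693 probes passed, and the part of pairing in the count of 2089 was not tested. The sign changed only in differences that passed in no direction, namely rpl6 (0.018), rpl9 (0.0817) and esr2b (0.077) before Lowess as deposited, the other esr2b probe (0.219) and cyp19a1a (-0.0554) without E2 replicate 2, and cyp19a1a (-0.0199) with the replicate block. With 1 array left out this esr2b probe ran from -0.914 to 0.219 and cyp19a1a from -0.0554 to 0.209. No passing named probe changed sign. In the simulated data 52% of the probes changed by 1 on the log2 scale were recovered, so that changes near 2-fold were often missed there. The part of group size in the count of passing probes was not tested. With the same 3 fish a group, 3314 probes passed when the controls were left out of the fit and 879 in the main fit. Recovery without the controls was not tested.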

Other observations

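The following gene groups were assembled after the values had been seen and carry no test of their own. Over all tested probes 2.88% rose and 2.54% fell. The group for amino acid breakdown and the urea cycle had 9 rises and 2 falls among 25 probes in E2+ICI against E2 fish, with a median of 0.38. It also holds the synthesis gene aldh18a1. Argininosuccinate synthase, ass1, was at 0.56, 0.55 and 0.78 in the E2+ICI fish, at -1.04, -0.22 and -0.64 in the E2 fish and at 1.01 to 1.16 in the controls (difference 1.26, adjusted p = 0.00704), so that all E2+ICI fish lay between the other groups. Homogentisate oxidase hgd, of tyrosine breakdown, rose by 1.04 and 1 of 2 probes of tyrosine aminotransferase tat by 0.85, and the other tat probe differed by -0.45 and did not pass. The proline synthesis gene aldh18a1 and the mitochondrial aminotransferase gene got2a fell by 1.44 and 0.72.

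Genes of glucose and glycogen metabolism had 7 rises and 1 fall among 30 probes. Beside pck1 and fbp1b, lactate dehydrogenase ldha was at 0.60, 0.51 and 0.38 in the E2+ICI fish, at -0.43, -0.54 and -0.26 in the E2 fish and at 0.20 to 0.32 in the controls (difference 0.90, adjusted p = 0.0076). The phosphofructokinase gene pfkpa, of glycolysis, rose by 1.03. The glycogen-targeting phosphatase subunit gene ppp1r3b fell by 1.65.

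Of 15 probes for the response to oxygen 3 rose and 1 fell. The hypoxia-inducible factor gene epas1a was at 0.78, 1.16 and 0.82 in the E2+ICI fish and at -0.09, -0.52 and -0.22 in the E2 fish (difference 1.20, adjusted p = 0.0173), and bnip3lb, of mitochondrial autophagy, rose by 1.09. The mitochondrial gene higd1a went the other way, with -0.51, -0.42 and -0.62 in the E2+ICI fish, 1.29, 1.27 and 0.93 in the E2 fish and -1.70 to -0.81 in the controls (difference -1.68, adjusted p = 0.00308). Of 27 clock probes 2 rose, bhlhe40 and per1b (0.73), and of 12 steroid synthesis probes 1 fell, cyp17a1 (-0.98).

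The 172 probes that share the accession of beta-actin, actb2, gave differences of -0.01 to 0.90 with a median of 0.42 and an SD over probes of 0.183. Of these probes 15 passed, all higher in E2+ICI fish, beside 2.88% of all tested probes. They are repeats for 1 transcript and not separate results. Each was counted singly among the tested probes, and the 15 are among the 467 that rose.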
